A study of Mus musculus with 6 samples.

Results

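Apical and basolateral polarity was followed through 9 genes in the array measurements of mouse embryos in which TEAD4 protein had been targeted for degradation. These were Pard3, Pard6b, Prkci, Prkcz, Ezr and Slc9a3r1, whose products lie at the apical side of outer cells, and Scrib, Llgl1 and Dlg1, whose products lie basolaterally. They were chosen by name, and each was read from the table row annotated to its symbol alone, so that all 9 of 9 were found among 30175 genes. Every one of the 9 lay at or above the median level of all genes, and each had a single row.

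Polarity sets the first cell fate choice of the mouse embryo. The PAR-3, PAR-6 and atypical protein kinase C complex collects at the free surface of outer cells together with ezrin and its scaffold NHERF1, the product of Slc9a3r1, while Scribble, LGL and DLG occupy the sides where cells touch. In polar outer cells the Hippo pathway is held off, YAP enters the nucleus and acts with TEAD4, and the cells become trophectoderm, the epithelium that pumps fluid into the blastocyst cavity. In the general model polarity therefore acts before TEAD4, and the arrays show the transcripts of polarity genes after its protein was targeted.

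The samples were B6C3F1 x CD1 embryos, injected at the pronuclear stage. The labels place the lysis of the embryos 72 h after injection, at 96 h of culture and 4 days post coitum. All 3 groups received mRNA for mCherry-Trim21, a fluorescent form of a ubiquitin ligase that sends antibody-bound protein to the proteasome, and dextran beads. One group received nothing more, another was co-injected with anti-GFP antibody, for which these embryos hold no target, and the last with anti-TEAD4 antibody. Every group gave 2 arrays, a and b, each from a pool of 10 embryos. By the labels the anti-TEAD4 pools had a missing or small, aberrant cavity, and the other pools were normal in appearance. The labels name the anti-TEAD4 pools morulae/blastocysts and the other pools blastocysts. A difference of stage therefore cannot be told apart from one of antibody. The depletion acts on protein, so the mRNA of Tead4 does not check it. Tead4 was at 8.44 and 8.95 with anti-TEAD4 and at 9.16 to 9.40 in the 4 control arrays. Trim21, whose signal includes the injected mRNA, was at 9.05 and 7.56 with mCherry-Trim21 mRNA alone, at 10.16 and 10.60 in the anti-GFP pools and at 12.11 and 11.47 after anti-TEAD4. Its log2 fold change against both control groups was 2.45 (standard error 0.45), and its part in the values of the polarity genes was not tested. All values are log2 intensities unless AU, the linear intensity, is named, and the precision is limited by having 2 arrays in each group. Replicates are pools of different embryos, so p-values measure the spread between pools.

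One array stood apart, and it bears on every value below. Anti-TEAD4 replicate a had a mean correlation of 0.975 with the other arrays, against 0.986 to 0.989 for the rest. Its 1525 olfactory and vomeronasal receptor genes, which serve here as a gauge of dim signal, had a median 0.25 above the control mean, against 0.04 in replicate b. Genes with a control mean of 7 to 8 had a median of −0.37 in replicate a and of 0.04 in replicate b, and genes of 10 to 11 had −0.38 and 0.05. The lower level of bright genes in replicate a is therefore set beside each member. Whole embryos were pooled, so fewer cells of a type and less RNA per cell cannot be told apart. Of 9 trophectoderm markers 7 were below every control array in both anti-TEAD4 pools, where 7.68% of all genes and 13.0% of those at or above the median level were. For 1 of the 7, Eomes, replicate b was at 9.79 against a lowest control of 9.80. The summed linear intensity of all 9 was 38650 and 72860 AU against 287400 to 294400 AU. Krt18 and Krt8 made up most of that sum, at means of 33110 and 17660 AU in the anti-TEAD4 pools. The bright marker Krt8 still had 12.99 and 14.73 in these pools, and Elf5 was dim in all groups. The summed inner cell mass and epiblast markers, 7 genes, were at 74280 and 122300 AU against 87020 to 109000 AU in the controls. Nearly all of that sum was Nanog, at a mean of 92090 AU in the anti-TEAD4 pools, so it does not describe the other genes. Of the 7, 2 lay above every control array in both anti-TEAD4 pools and 1, Klf4, lay below, where 11.4% and 7.68% of all genes did. The 2 were Sox2, at 9.21 and 9.22 against 8.32 to 8.97, and Fgf4, at 5.46 and 5.38 against 4.64 to 5.34. Of 5 primitive endoderm and 5 cumulus cell markers none was separated from the controls in either direction, and the cumulus markers summed to 181 and 212 AU against 146 to 170 AU. The part of the loss of trophectoderm signal in the values of the polarity genes was not tested.

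Promoter sequences are shown for 4 genes because TEAD proteins and AP-2, which promotes polarization in the mouse embryo, bind known motifs, and because the member with the greatest difference between groups can be set beside one that hardly differed. The windows run from 250 bases before to 50 bases after a start site, 5′ to 3′ on the gene's strand, from RefSeq on GRCm38.p6. Capitals mark GGAATG, the TEAD motif, or GCCNNNGGC, an AP-2 motif, searched on both strands with no overlap between the motifs.
Slc9a3r1, chr11:115163091-115163390, plus strand, no match to either motif: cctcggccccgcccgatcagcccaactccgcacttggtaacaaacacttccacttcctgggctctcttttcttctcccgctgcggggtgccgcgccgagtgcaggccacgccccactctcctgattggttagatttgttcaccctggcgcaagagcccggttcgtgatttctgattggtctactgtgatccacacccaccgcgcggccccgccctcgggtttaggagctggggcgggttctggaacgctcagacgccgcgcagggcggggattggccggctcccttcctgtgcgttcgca
Prkci, chr3:30995521-30995820, plus strand, TEAD motif: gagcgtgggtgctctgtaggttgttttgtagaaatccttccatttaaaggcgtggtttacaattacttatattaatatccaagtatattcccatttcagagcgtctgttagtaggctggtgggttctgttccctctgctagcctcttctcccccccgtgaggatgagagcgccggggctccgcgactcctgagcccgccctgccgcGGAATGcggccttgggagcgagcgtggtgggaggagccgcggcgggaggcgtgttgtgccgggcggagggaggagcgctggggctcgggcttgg
Pard6b, chr2:168080754-168081053, plus strand, AP-2 motif: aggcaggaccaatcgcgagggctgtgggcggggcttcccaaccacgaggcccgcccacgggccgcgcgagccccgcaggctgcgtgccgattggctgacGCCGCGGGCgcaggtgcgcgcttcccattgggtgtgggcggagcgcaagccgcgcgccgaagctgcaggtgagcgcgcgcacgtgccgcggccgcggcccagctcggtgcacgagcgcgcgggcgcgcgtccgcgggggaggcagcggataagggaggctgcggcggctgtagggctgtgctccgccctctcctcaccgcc
Msn, chrX:96095795-96096094, plus strand, AP-2 motif: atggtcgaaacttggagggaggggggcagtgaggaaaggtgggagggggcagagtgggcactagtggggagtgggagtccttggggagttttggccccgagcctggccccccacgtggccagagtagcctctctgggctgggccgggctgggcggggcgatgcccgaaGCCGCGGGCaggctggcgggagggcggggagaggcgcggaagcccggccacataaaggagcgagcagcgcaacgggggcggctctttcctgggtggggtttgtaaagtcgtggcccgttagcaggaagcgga
Of the members, 8 had windows in the table, 14 windows in all, and Scrib had none. The TEAD letters were found in 1 of the 14, in Prkci, starting 44 bases before the start site, and in 14.7% of the 32851 windows of all genes. The AP-2 letters were found in 4 of the 14, of Dlg1, Pard3, Pard6b and Prkcz, and in 16.6% of all windows. A match is a string of letters in a window and not a measured site.

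Slc9a3r1, on chromosome 11 from 115163341 to 115181178, showed the greatest difference among the 9 genes, and the only one over 1 on the log2 scale against both control groups. NHERF1, its product, is a scaffold with PDZ domains that ties membrane proteins to ezrin, radixin and moesin and lines the apical surface of outer cells. The log2 intensities were 11.87 and 11.63 in the mCherry-Trim21 pools, 11.65 and 11.37 in the anti-GFP pools, and 7.81 and 9.09 after anti-TEAD4. Both anti-TEAD4 arrays were lower than all 4 control arrays by a wide gap, and replicate a was the lower one. In linear units these were 3456 ± 406 AU (SD, n = 2) in the mCherry-Trim21 pools, 2930 ± 401 AU (SD, n = 2) in the anti-GFP pools and 385 ± 227 AU (SD, n = 2) after anti-TEAD4. The log2 fold change of anti-TEAD4 against both control groups was −3.18 (standard error 0.37), a 9.06-fold lower level, with limma's unadjusted p = 0.000202 and adjusted p = 0.182 over all genes. It was the difference ranked 6 among the lower genes by size, and ranked 33 by p. Against each control group alone the log2 fold change was −3.30 for mCherry-Trim21 mRNA and −3.06 for anti-GFP. The pools were at −3.82 and −2.54 from the control mean, where genes of that level had medians of −0.30 and 0.10. In both pools Slc9a3r1 therefore lay far below the genes of like level. Without anti-TEAD4 replicate b the log2 fold change was −3.82, and without replicate a it was −2.54, each resting on 1 anti-TEAD4 array. The 3 genes with the nearest centred profile over the 6 arrays were sought with Gm and Rik symbols set aside. Id2, an inhibitor of basic helix-loop-helix factors, was nearest to Slc9a3r1, at a root mean square difference of 0.29. Krt8, a keratin of the trophectoderm, was at 0.35, and Slc44a4, a choline transporter-like gene, at 0.37. Id2 and Krt8 are also on the list of trophectoderm markers given above.

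**Figure D1:**
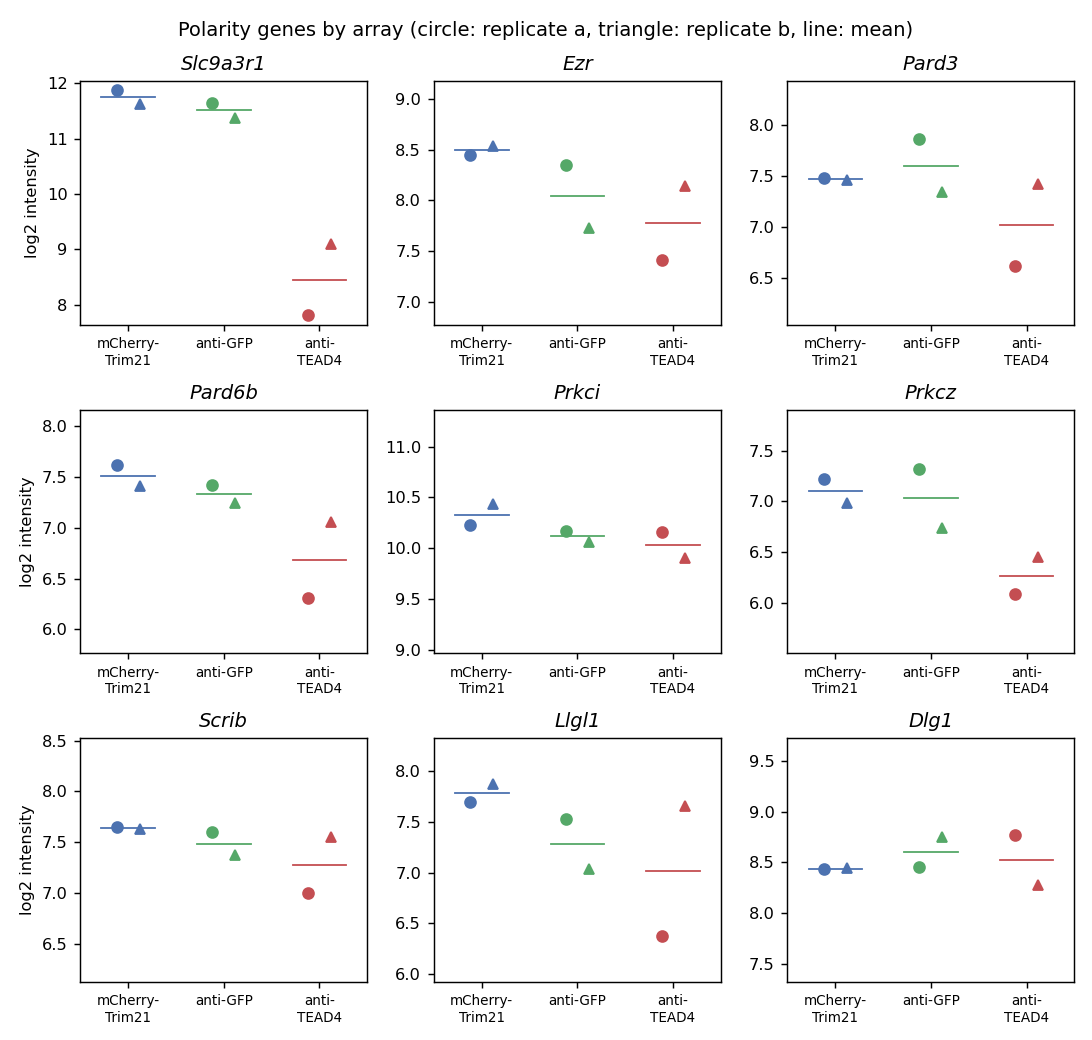
Log2 intensity (vertical axis) of the 9 polarity genes in 2 pools of each of the 3 groups, with a line at each group's mean. The vertical axis of Slc9a3r1 spans more than the rest, which share 1 span but not 1 position. Slc9a3r1 is at 7.81 and 9.09 with anti-TEAD4 and above 11 in every control array.

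Ezr encodes ezrin, which links the apical membrane to actin and binds NHERF1. Its values were 8.45 and 8.54 in the mCherry-Trim21 pools, 8.35 and 7.73 in the anti-GFP pools, and 7.41 and 8.14 after anti-TEAD4. The groups overlapped, since anti-TEAD4 replicate b lay above anti-GFP replicate b. The log2 fold change against both control groups was −0.49 (95% interval −1.18 to 0.20, limma), and the interval includes both no difference and a halving of signal. Its near relatives among the ezrin, radixin and moesin proteins did not share 1 pattern. Msn, which encodes moesin, had 10.06 and 9.53, then 9.61 and 9.51, and 6.92 and 7.95 with anti-TEAD4. Both anti-TEAD4 arrays were well below the controls, at a log2 fold change of −2.24 (standard error 0.32), with limma's unadjusted p = 0.00065 and adjusted p = 0.229. Rdx, which encodes radixin, had 9.98 and 9.72, 9.42 and 9.96, and 10.13 and 9.13, so that its anti-TEAD4 pools lay on either side of the controls. Of the scaffold's relatives, Pdzk1, a further PDZ protein of apical membranes, had 6.99 and 6.65, 6.53 and 7.27, and 5.74 and 5.81. Both anti-TEAD4 values of Pdzk1 lay below those of the controls and close to each other, at a log2 fold change of −1.09 (standard error 0.24). Slc9a3r2, which encodes NHERF2, was dim in all arrays at 4.25 to 4.80, near the general level of genes at the low end, and a difference could not be judged there.

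No gene of the PAR complex had a log2 fold change as large as that of Slc9a3r1. Pard6b encodes the PAR-6 adaptor that couples atypical protein kinase C to CDC42. It was measured at 7.62 and 7.41 in the mCherry-Trim21 pools, 7.42 and 7.24 in the anti-GFP pools, and 6.31 and 7.06 after anti-TEAD4. Both anti-TEAD4 values lay below those of every control, replicate b by a narrow margin. The log2 fold change against both control groups was −0.74 (standard error 0.24), with limma's unadjusted p = 0.0238 and adjusted p = 0.523. Its pools were at −1.11 and −0.36 from the control mean, where genes of its level had medians of −0.37 and 0.04. Without anti-TEAD4 replicate b the log2 fold change was −1.11, which rests on 1 anti-TEAD4 array. Its paralog Pard6g lay the other way, at 7.68 and 7.52, 7.71 and 7.52, and 8.60 and 8.02. Both anti-TEAD4 arrays of Pard6g were above all control arrays, at a log2 fold change of 0.70 (standard error 0.20), with limma's unadjusted p = 0.0149 and adjusted p = 0.49. Pard6a had 5.59 to 5.74 in the controls, and 4.83 and 5.59 after anti-TEAD4, so only replicate a was apart.

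Prkcz, on chromosome 4, encodes the zeta isoform of atypical protein kinase C, and Prkci, on chromosome 3, the iota isoform. Prkcz was at 7.22 and 6.98 in the mCherry-Trim21 pools, 7.32 and 6.74 in the anti-GFP pools, and 6.09 and 6.45 after anti-TEAD4. Both anti-TEAD4 values lay below those of every control. Its log2 fold change against both control groups was −0.80 (standard error 0.22), with limma's unadjusted p = 0.0133 and adjusted p = 0.477, and with any 1 array left out it stayed between −0.98 and −0.62. Relative to the median of genes of its level, Prkcz was lower by a similar amount in both pools, at −0.61 for a and −0.65 for b. Prkci had 10.23 and 10.43, 10.17 and 10.06, and 10.16 and 9.90, and the groups overlapped. Its log2 fold change was −0.19 (95% interval −0.56 to 0.17, limma). In Prkci the order of the pools was turned, since replicate b was the lower one and replicate a, where genes of its level were at −0.38, was at −0.06 from the control mean. The difference between the isoforms was not tested.

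Pard3 encodes PAR-3, the scaffold on which the complex assembles. Its values were 7.48 and 7.46, 7.86 and 7.34, and 6.61 and 7.42 with anti-TEAD4. Replicate a was below all control arrays and replicate b lay among them. The log2 fold change was −0.52 (95% interval −1.21 to 0.17, limma). Its paralog Pard3b was dim in every array, at 3.84 to 4.24.

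**Figure D2:**
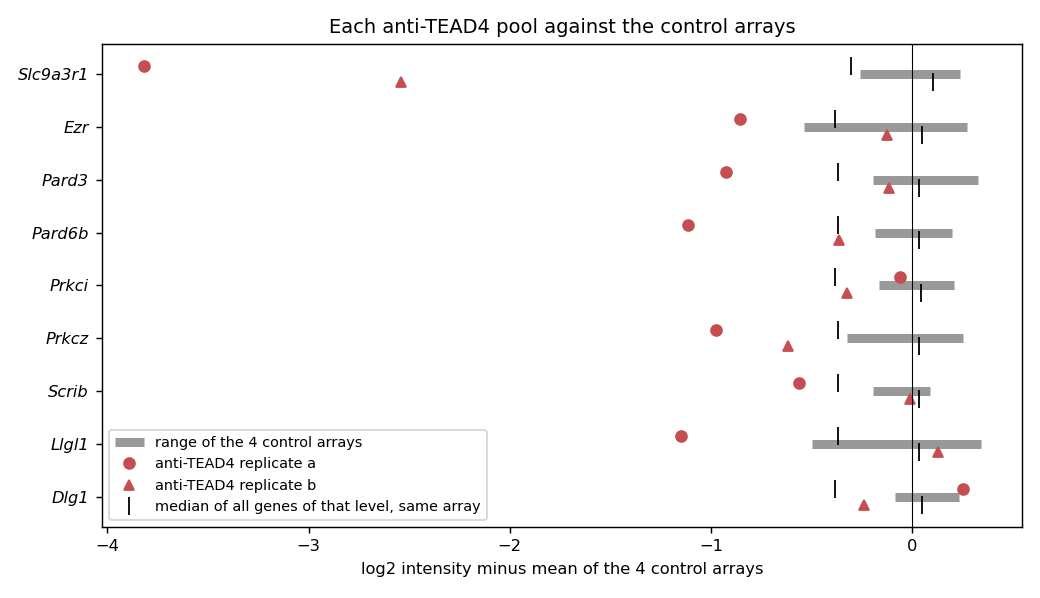
Difference of each anti-TEAD4 pool from the mean of the 4 control arrays (horizontal axis, log2) for the 9 genes, with the range of the control arrays in grey and the median of all genes of like level on the same array as a black tick. Slc9a3r1 stands at −3.82 and −2.54, and Prkcz and Pard6b are the others with both pools below the grey range.

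The basolateral members overlapped between groups. Scrib encodes Scribble, a scaffold of lateral membranes, and was at 7.65 and 7.63, 7.60 and 7.37, and 7.00 and 7.55 with anti-TEAD4. Only replicate a lay below the controls, and the log2 fold change was −0.29 (95% interval −0.77 to 0.20, limma). Dlg1 encodes a membrane-associated guanylate kinase that works with Scribble. It had 8.43 and 8.44, 8.45 and 8.75, and 8.77 and 8.28, so that the anti-TEAD4 pools lay on opposite sides of the controls. Its log2 fold change was 0.01 (95% interval −0.47 to 0.48, limma), and it was −0.24 without anti-TEAD4 replicate a.

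Llgl1 encodes an LGL protein, which atypical protein kinase C phosphorylates to keep it off the apical membrane. Its values were 7.69 and 7.87 in the mCherry-Trim21 pools, 7.53 and 7.03 in the anti-GFP pools, and 6.38 and 7.66 after anti-TEAD4. Replicate a was the lowest of all arrays, and replicate b was above both anti-GFP arrays. The log2 fold change against both control groups, −0.51 (95% interval −1.46 to 0.44, limma), rested on replicate a. It was 0.13 without that array. Without its fellow pool it was −1.15, which rests on 1 anti-TEAD4 array. Its paralog Llgl2 had 8.17 and 8.35, 8.29 and 7.93, and 6.82 and 7.70, and both anti-TEAD4 values lay below those of every control. The log2 fold change of Llgl2 was −0.93 (standard error 0.28), with limma's unadjusted p = 0.0179 and adjusted p = 0.501. Among the DLG paralogs Dlg3 had 5.15 and 5.05 with anti-TEAD4 against 5.39 to 5.59 in the controls, a log2 fold change of −0.37 (standard error 0.12). Dlg5 had 4.92 and 5.11 against 5.09 to 5.48 and overlapped, and Dlg2 and Dlg4, at 3.69 to 4.36 in all arrays, were dim.

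**Figure D3:**
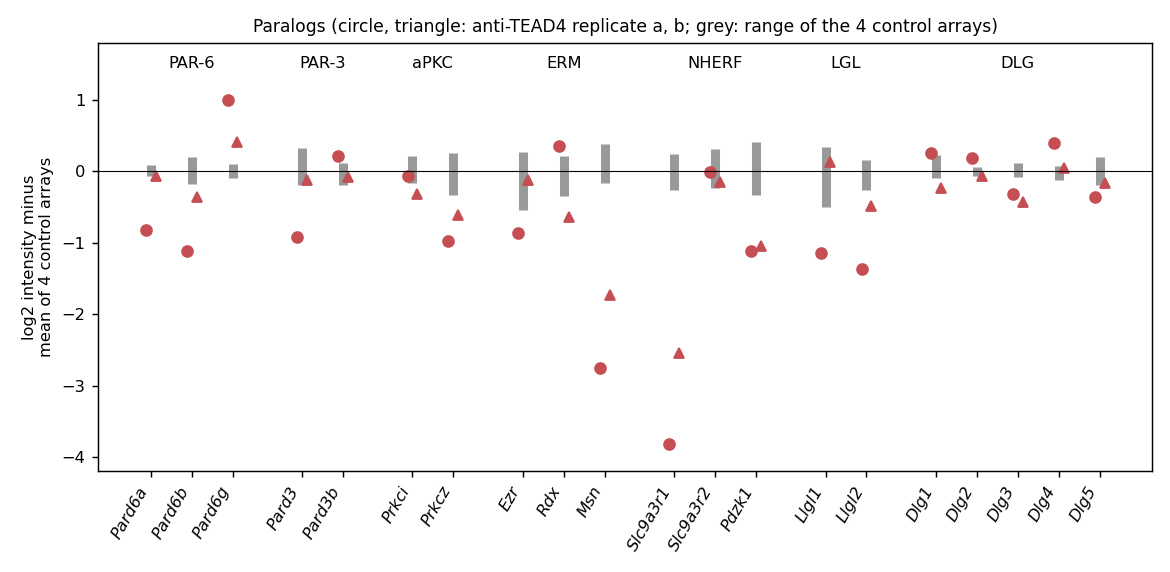
Difference of each anti-TEAD4 pool from the control mean (vertical axis, log2) for the members and their relatives, by family, with the range of the 4 control arrays in grey. Msn is at −2.76 and −1.73 while Ezr and Rdx have a pool within or above the grey range, and Pard6g is at 0.99 and 0.41 while Pard6b is at −1.11 and −0.36.

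Counted over all 9 genes, 3 were below every control array in both anti-TEAD4 pools, namely Slc9a3r1, Prkcz and Pard6b, and 0 lay above. Over all genes 7.68% lay below and 11.4% above, and among genes at or above the median level, as all members are, 13.0% lay below. In replicate a alone 7 of the 9 were below every control array, where 50.1% of genes at or above the median level were. In replicate b alone 5 were, namely Slc9a3r1, Prkcz, Pard6b, Prkci and Dlg1, where 20.4% of those genes were. The median log2 fold change against both control groups was −0.51 over the members, −0.07 over genes at or above the median level and 0.06 over all genes. Members lie higher still, at percentiles 73.1 to 90.9 of level. Genes of the members' levels had medians of −0.38 to −0.30 in replicate a, against −0.205 over genes at or above the median level. In replicate b these were 0.04 to 0.10, against 0.045. Shares below the controls were not counted at the members' own levels. These counts are a description, and Slc9a3r1 is the member whose gap was large in both pools.

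No member passed limma's adjusted p under 0.05 in any of the 4 comparisons, and neither did any other gene, 0% of the 30175 in each. At an unadjusted p under 0.05, Slc9a3r1, Prkcz and Pard6b were lower against both control groups, 3 of 9, where 4.44% of all genes were lower and 4.06% higher. Among genes at or above the median level, where all members lie, 8.47% were lower and 4.10% higher. Against mCherry-Trim21 mRNA alone the same 3 genes were lower, where 3.32% of all genes were lower and 3.18% higher, and 6.38% and 3.52% of those at or above the median level. Against anti-GFP alone Slc9a3r1 and Prkcz were lower, where 3.76% of all genes were lower and 2.84% higher, and 7.00% and 2.82% of those at or above the median level. Pard6b had −0.65 there (unadjusted p = 0.0614, limma). No member was higher at that threshold in any comparison. If anti-TEAD4 replicate b was left out, 7 members were lower against both control groups, where 30.6% of genes at or above the median level were. If replicate a was left out 1 was, Slc9a3r1, where 6.37% of these genes were. With 1 control array left out the share of all genes was not counted, so no count of members is given for those fits. Slc9a3r1, Pard6b and Llgl1 passed the adjusted threshold against both control groups without anti-TEAD4 replicate b, in a fit where 13.3% of all genes passed. With that array left out, 9.25% of all genes passed with anti-GFP as the control and 9.43% with mCherry-Trim21 mRNA. These comparisons share the anti-TEAD4 arrays, and the first shares its controls with the others.

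The antibody control showed how far these genes vary without TEAD4 being targeted. Between anti-GFP and mCherry-Trim21 mRNA 0 of the 9 had an unadjusted limma p under 0.05, where 0.351% of all genes were lower and 0.742% higher. The greatest differences were −0.50 for Llgl1 (standard error 0.44) and −0.46 for Ezr (standard error 0.32), and the anti-TEAD4 differences of these genes against anti-GFP were smaller, at −0.26 and −0.27. Slc9a3r1 had −0.24 (standard error 0.42). These errors pool the spread of every group, so they are not errors of the control groups alone. The anti-TEAD4 arrays had a median absolute difference of 0.32 from each other. It was 0.15 in the mCherry-Trim21 pair and 0.18 in the anti-GFP pair. With only the control groups fitted, the errors of Llgl1, Ezr and Slc9a3r1 were smaller, and none of these genes had an unadjusted limma p under 0.05. Ordered by group mean, mCherry-Trim21 was highest, anti-GFP next and anti-TEAD4 lowest in 7 of the 9 genes, with Pard3 and Dlg1 apart. In none of the 7 did the step between the control groups exceed its error by enough to reach that threshold. How many of all genes follow this order was not counted, so the 7 cannot be taken as a trait of polarity genes.

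**Figure D4:**
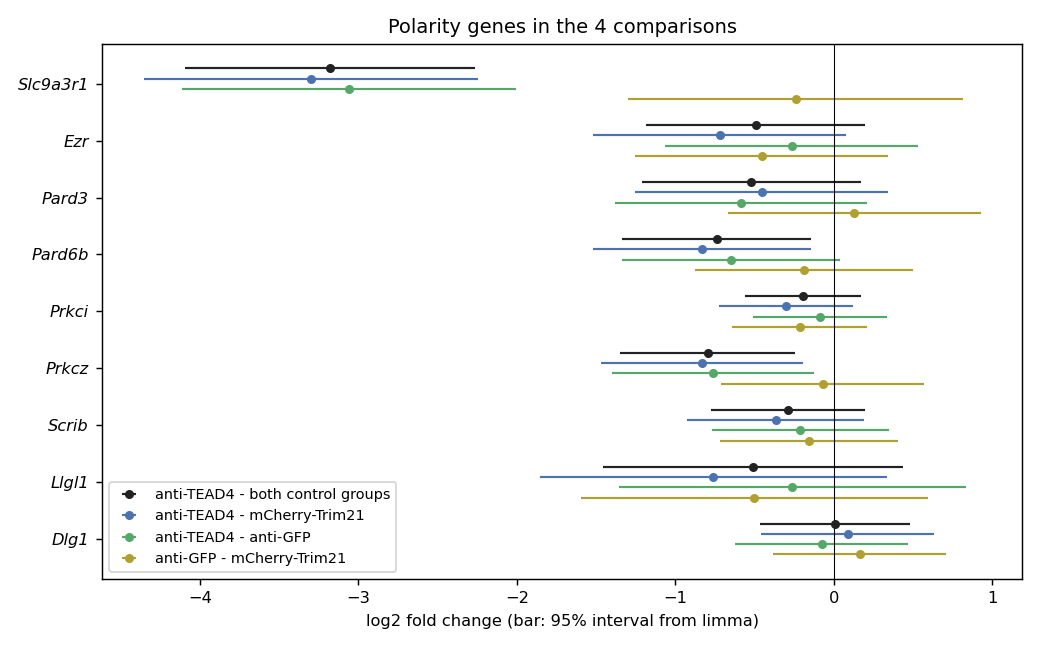
Log2 fold change (horizontal axis) of the 9 genes in the 4 comparisons, with 95% intervals from limma. The intervals of Slc9a3r1 against the controls, −4.10 to −2.26 for both groups together, lie far from 0. Those of Pard3, Prkci, Ezr, Scrib, Llgl1 and Dlg1 include 0 in every comparison.

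Around the members, 45 further genes of the polarity machinery were read from 3 lists. Of these 12 were below every control array in both anti-TEAD4 pools and 3 were above, against the 7.68% and 11.4% of all genes given above, and 34 of the 45 lay at or above the median level. At an unadjusted limma p under 0.05 against both control groups 11 were lower and 1, Pard6g, was higher, beside 4.44% and 4.06% of all genes and 8.47% and 4.10% of genes at or above the median level. None passed the adjusted threshold. The lists were 16 apical partners (median log2 fold change −0.20), 18 basolateral partners (−0.18) and 11 genes of actomyosin and of the regulators of polarization (−0.24).

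Among the apical partners Mpp5, which encodes PALS1, the partner of Crumbs, was at 6.77 and 7.67 with anti-TEAD4 and 7.77 to 8.06 in the controls, a log2 fold change of −0.71 (standard error 0.27). Crb3, the Crumbs protein of epithelia, had 8.07 and 8.79 against 8.70 to 8.82, and only replicate a was lower. Cdc42, the small GTPase that PAR-6 binds, had 13.16 and 13.31 against 13.25 to 13.52 and overlapped. Wwc1, which encodes the apical protein KIBRA, an upstream regulator of the Hippo pathway, had 6.54 and 6.35 against 6.76 to 6.96 and did not overlap. Of the 16 apical partners 5 were separated below the controls (Msn, Pdzk1, Mpp5, Wwc1 and Patj) and 2 above (Pard6g and the dim Crb2), and the greatest differences were in Msn and Pdzk1. Shares over all genes were 7.68% below and 11.4% above, with 13.0% below among genes at or above the median level. The 2 above are thus near the general share.

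Among the basolateral partners Mark3, a kinase of the PAR-1 family, had 10.17 and 10.70 against 10.90 to 11.13, a log2 fold change of −0.60 (standard error 0.19). Mark2, its relative, had 6.19 and 7.20 against 7.13 to 7.34, and replicate b lay among the controls. Erbin, a relative of Scribble by its leucine-rich repeats and PDZ domain, was at 9.30 and 8.01 after anti-TEAD4, against 7.72 to 7.97. Both arrays were above the controls, replicate b only just, and the log2 fold change was 0.77 (standard error 0.36). Stk11, which encodes the polarity kinase LKB1, had 9.06 and 10.11 against 9.53 to 10.02 and lay on either side.

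Among the actomyosin genes the myosin heavy chain Myh10 and the regulatory light chain Myl12b stood out. Myh10 had 7.71 and 8.55 with anti-TEAD4 against 9.59 to 9.95, a log2 fold change of −1.62 (standard error 0.26), with limma's unadjusted p = 0.00116 and adjusted p = 0.277. Myl12b had 11.58 and 12.19 against 12.86 to 13.28, a log2 fold change of −1.20 (standard error 0.22), with limma's unadjusted p = 0.002 and adjusted p = 0.313. In both genes the groups did not overlap. Ect2, an exchange factor for RHOA, and Tiam1, one for RAC1, had smaller differences of −0.41 (standard error 0.14) and −0.41 (standard error 0.13), also without overlap. Rhoa itself had 10.95 and 10.97 against 10.86 to 11.23, and Tfap2c, which encodes an AP-2 factor and is a trophectoderm marker too, had 7.77 and 7.55 against 7.56 to 8.36. Neither Rhoa nor Tfap2c was separated from the controls.

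**Figure D5:**
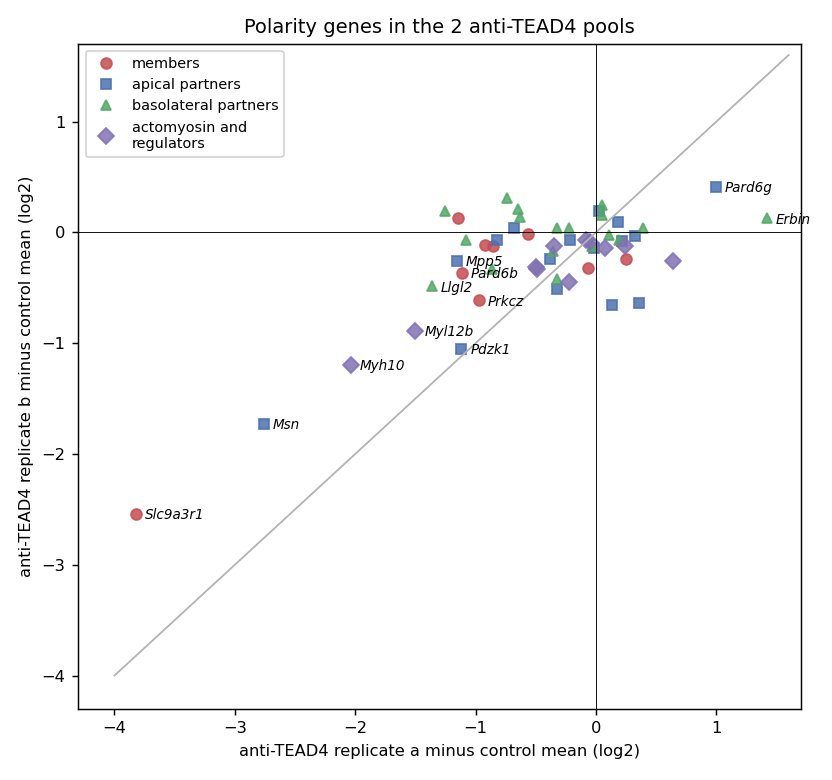
Difference from the control mean (log2) in anti-TEAD4 replicate a (horizontal axis) and replicate b (vertical axis) for the 9 members and 45 further polarity genes, with a line of equal values. Slc9a3r1, Msn, Myh10, Myl12b and Pdzk1 are low in both pools, and most other genes lie near 0 in replicate b.

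The likeness of the other members with a range over 1 on the log2 scale was to genes of many kinds, and mostly followed replicate a. Pard6b was nearest to Tbc1d2b and Iqgap1, both at a root mean square difference of 0.06, and Elovl5 at 0.07. Iqgap1 encodes a scaffold that binds CDC42 and actin. Prkcz was nearest to Tcf20 at 0.08, Epb41l2 at 0.09 and Cnnm4 at 0.09. Pard3 was nearest to Zfyve26, Ezr to Cilp and Llgl1 to Slc27a4. These are descriptions over 6 arrays, chosen from all genes other than those with Gm or Rik symbols.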

How the data were processed

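RNA of each pool, extracted without DNase digestion, was hybridized to an Affymetrix Mouse Transcriptome Array. Per the labels and the methods, the authors ran robust multiarray averaging, which subtracts background, normalizes and summarizes probes, in the Affymetrix Expression Console and deposited log2 intensities. Of 65956 rows 1 was left out, since 1 of its values cannot be a log2 intensity. Of 65955 rows, 30637 carried 1 symbol, 2176 several and 33142 none here. The brightest row with 1 symbol stood for a gene. Myh9, Gata3 and Pdgfra, read only by rows with several symbols, and Rock2, Spp1 and Lhcgr, which no row names here, were not read. Linear intensity is 2 to the power of the deposited log2 value. Scanner files were not used here.

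The groups were compared with limma 3.58.1 in R 4.3.3 over all 6 arrays (3 residual degrees of freedom), two-sided, adjusted by Benjamini-Hochberg over 30175 genes, and drawn in Python 3.11.15 with matplotlib 3.10.9. The fit was tested on simulated data. Members and lists were chosen with earlier results of these data known. Named are all members, their paralogs, and up to 4 genes a list with the largest absolute difference at or above the median level; Crb2, Crb3, Patj, Cdc42, Wwc1, Stk11, Rhoa, Tfap2c and Iqgap1 were named after their values were seen or by likeness. Alternatives were each array left out, a replicate block, only the groups compared, an intensity trend, quantile normalization, median centring, no dim genes, other choices of rows, an unmoderated analysis of variance and what is called the methods' t-test, with the threshold of 0.01. The study's methods name an analysis of variance for the arrays and its text a t test, and the linear intensities and equal variances were chosen here.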

Additional observations from a re-analysis of the deposited data

How the results depend on the processing

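With 2 pools a group, 1 array decided what passed. With each array left out in turn, the number of members passing the adjusted threshold ran from 0 to 3 against both control groups and against mCherry-Trim21 mRNA, and from 0 to 2 against anti-GFP, and was above 0 only without anti-TEAD4 replicate b, where the lone array is assumed to vary like the other groups and where 13.3%, 9.43% and 9.25% of all genes passed in the same comparisons. The 3 were Slc9a3r1, Pard6b and Llgl1. The wider genes passing ran from 0 to 11, 0 to 10 and 0 to 10. By the methods' t-test against both control groups 1 member, Slc9a3r1, and 4 wider genes passed, and after Benjamini-Hochberg none. The share of all genes passing that t-test before adjustment was not counted, so these numbers cannot be read against it. Members below all control arrays ran from 3 to 7, and those above from 0 to 1. The count below was 5 without anti-TEAD4 replicate a, where 20.4% of genes at or above the median level were. It was 7 without its fellow pool, where 50.1% of these genes were. Leaving out anti-GFP replicate b also gave 7, but the share of all genes was not counted there. Wider genes ran from 12 to 23 below and from 3 to 10 above. Shares above the controls with 1 array left out were not counted, so the counts above cannot be read against them. After median centring, which moved the median of all genes by −0.13, 1 wider gene, Pard6g, was above.

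Of 675 values of members under the alternatives, 650 kept their direction and side of the threshold, 9 newly passed and 16 changed direction. The 16 were 2 of Dlg1 under median centring and 14 with 1 array left out. The 650 are no measure of robustness, since many could not change direction. Each member has a single row, so other choices of rows return the same log2 fold change. The replicate block, the trend, the unmoderated fit, the fit without dim genes and that of only the groups compared also leave it unchanged. The methods' t-test is counted both with and without Benjamini-Hochberg. With each array left out in turn the log2 fold change of Llgl1 ran from −1.15 to 0.13 against both control groups and from −0.90 to 0.38 against anti-GFP, and that of Dlg1 from −0.24 to 0.25. For Dlg1 the range was −0.32 to 0.17 when anti-GFP was the control and −0.16 to 0.34 when mCherry-Trim21 mRNA was. Against anti-GFP Ezr ran from −0.63 to 0.10, Scrib from −0.485 to 0.065 and Prkci from −0.215 to 0.045. Between the control groups Pard3 ran from −0.13 to 0.39 and Prkcz from −0.36 to 0.22. After median centring Dlg1 had −0.13 against both and −0.05 against mCherry-Trim21 mRNA. The cause was not tested.

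The letters a and b are shared by the groups but no label ties them to a common source, and deviations from the group means correlated at −0.51, 0.21 and −0.25 between same-lettered arrays. With the letter as a replicate block 0 members passed, and 3, 3 and 2 had an unadjusted p under 0.05 against both control groups, mCherry-Trim21 mRNA and anti-GFP, as without it. How many of all genes did so with the block was not counted, so these member counts have no general share beside them.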
